A study of Mus musculus with 8 samples.

Results

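ON bipolar cell signalling was followed through 9 genes in a microarray study of aged mouse retina. Grm6, Trpm1, Gpr179, Nyx, Rgs7 and Rgs11 belong to the cascade of the receptor mGluR6, and Prkca, Cabp5 and Vsx1 are markers of bipolar cells. The 9 genes were found on the array by matching the accession of each probe to these gene symbols, which gave 19 of the 56605 probes. Of these, 18, from all 9 genes, were retained among the 37085 probes bright enough to test. Whole retinas of mice aged 46 to 55 weeks were compared between homozygous Mrp4 knockout mice (Mrp4-null) and wild-type mice, with 4 samples of each genotype and 1 array per sample. The knockout line was kept on a C57BL/6J background, the origin of the wild-type mice is not given in the sources used here, and the methods name 3 mice and 4 samples of each genotype, which leaves unclear whether a sample pooled mice and whether the 4 samples are separate animals. Both genotypes were untreated, and the comparison asks whether gene expression in the aged retina differs with the loss of MRP4, an efflux transporter encoded by Abcc4.

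ON bipolar cells answer to light by a sign inversion. In darkness photoreceptors release glutamate, which binds the receptor mGluR6 on the bipolar dendrite, activates the G protein Go and closes the cation channel TRPM1. Light stops the glutamate, RGS proteins switch Go off, and the channel opens, which gives rise to the b-wave of the electroretinogram. Loss of mGluR6, TRPM1, GPR179 or nyctalopin causes complete congenital stationary night blindness in people.

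Each array reported a fluorescence intensity per probe, given below as quantile-normalized log2 signal. No spot was saturated, and between 66.0% and 69.9% of probes were well above background on single arrays. The 75th percentile of the signal, a measure of overall brightness, was 670 on array 2 labelled Mrp4-null and 698 on wild-type array 3, and 773 to 1068 on the other arrays. All arrays lay on 1 slide with the genotypes in separate rows, so slide row and genotype cannot be told apart. Nothing in the labels ties the samples to single animals, so p-values measure the spread between these samples. Abcc4 was higher under the knockout label, with log2 signals of 10.84, 10.71, 10.64 and 10.80 on arrays 1 to 4 labelled Mrp4-null against 6.62, 7.13, 6.54 and 7.02 on wild-type arrays 1 to 4 (p = 0.0286 in a two-sided exact permutation test, which can go no lower with 4 arrays against 4). The log2 fold change of 3.92 (SE 0.14) goes against the knockout label. The 1 retained probe of Abcc4 was not placed relative to the deleted part of the gene, and every direction below follows the labels as deposited.

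To show the regulatory sequence of the members that the results turn on, the 200 bases before the transcription start are printed for Grm6, Trpm1 and Prkca, each of which had a probe whose arrays did not overlap between genotypes, and for Cabp5. The sequences are from RefSeq (GRCm38.p6), 5′ to 3′ on the strand of the gene, at chr11:50850485-50850684 for Grm6 (plus strand), chr7:64153635-64153834 and chr7:64185259-64185458 for the upstream and the downstream start of Trpm1 (plus strand), chr11:108343889-108344088 for Prkca (minus strand) and chr7:13397955-13398154 for Cabp5 (plus strand). Capitals mark TAATCC, the core of sites bound by the homeodomain proteins OTX2 and CRX, or its reverse complement GGATTA.
Grm6: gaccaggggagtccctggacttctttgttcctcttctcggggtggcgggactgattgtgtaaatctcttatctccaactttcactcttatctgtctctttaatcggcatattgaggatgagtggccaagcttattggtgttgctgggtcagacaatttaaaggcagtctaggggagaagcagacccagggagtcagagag
Trpm1 upstream start: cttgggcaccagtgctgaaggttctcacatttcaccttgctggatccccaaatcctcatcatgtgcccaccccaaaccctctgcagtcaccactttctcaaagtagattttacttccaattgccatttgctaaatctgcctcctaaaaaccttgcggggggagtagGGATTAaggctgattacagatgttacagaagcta
Trpm1 downstream start: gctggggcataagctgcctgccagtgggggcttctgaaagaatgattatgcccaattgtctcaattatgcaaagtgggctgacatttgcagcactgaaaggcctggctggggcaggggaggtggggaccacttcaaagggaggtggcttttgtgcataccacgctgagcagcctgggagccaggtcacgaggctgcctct
Prkca: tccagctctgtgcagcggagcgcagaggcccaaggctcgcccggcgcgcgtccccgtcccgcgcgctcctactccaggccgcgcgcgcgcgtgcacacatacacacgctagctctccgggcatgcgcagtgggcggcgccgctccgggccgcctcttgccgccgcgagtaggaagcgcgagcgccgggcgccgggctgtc
Cabp5: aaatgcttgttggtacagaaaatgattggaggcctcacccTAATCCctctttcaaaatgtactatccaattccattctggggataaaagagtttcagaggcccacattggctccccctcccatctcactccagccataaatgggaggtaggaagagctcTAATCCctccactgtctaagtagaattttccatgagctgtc
The motif was searched on both strands of the 300 bases from 250 before to 50 after each start. It was present in 2 of the 9 promoters listed for 8 member genes, and in 7.06% of all 32851 promoters in the table. In Cabp5 it began 160 and 41 bases before the start, and at the upstream start of Trpm1 it began 34 bases before it. A match is a description of the letters only.

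None of the 9 genes was called changed between the genotypes. A call needed a fold change of at least 1.5 and a Benjamini-Hochberg adjusted p under 0.05 from limma, which 0.545% of all retained probes met, and 0 of the 18 member probes did. The local pooled error (LPE) test also called 0 of 18, against 0.626% of all retained probes. Without adjustment, 4 of the 18 probes, from Grm6, Trpm1 and Prkca, had p under 0.05 in limma, against 6.46% of all retained probes, and 2 did in the LPE test, against 2.89% of all retained probes. All 4 were higher under the knockout label, as 3.52% of all retained probes were at that threshold. An adjusted p under 0.05 without a fold minimum was reached by 0 member probes and by 0.601% of all retained probes. Of the member probes, 17 had a log2 fold change above 0 (higher under the knockout label), while 46.8% of all retained probes lay above 0. This number was 15 under a shift to the 75th percentile, 14 without wild-type array 3 and 18 with another background correction. The sign of 7 of the 18 probes turned when 1 array was left out. Probes of the same gene are not separate observations. Taking the probe with the highest mean signal for each gene, called the brightest probe here, the median log2 fold change of the 9 genes was 0.16, with a range of -0.03 to 0.28. The median over all retained probes was -0.01. Signals from whole retina cannot tell a different number of bipolar cells from a different amount of RNA per cell.

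**Figure D1:**
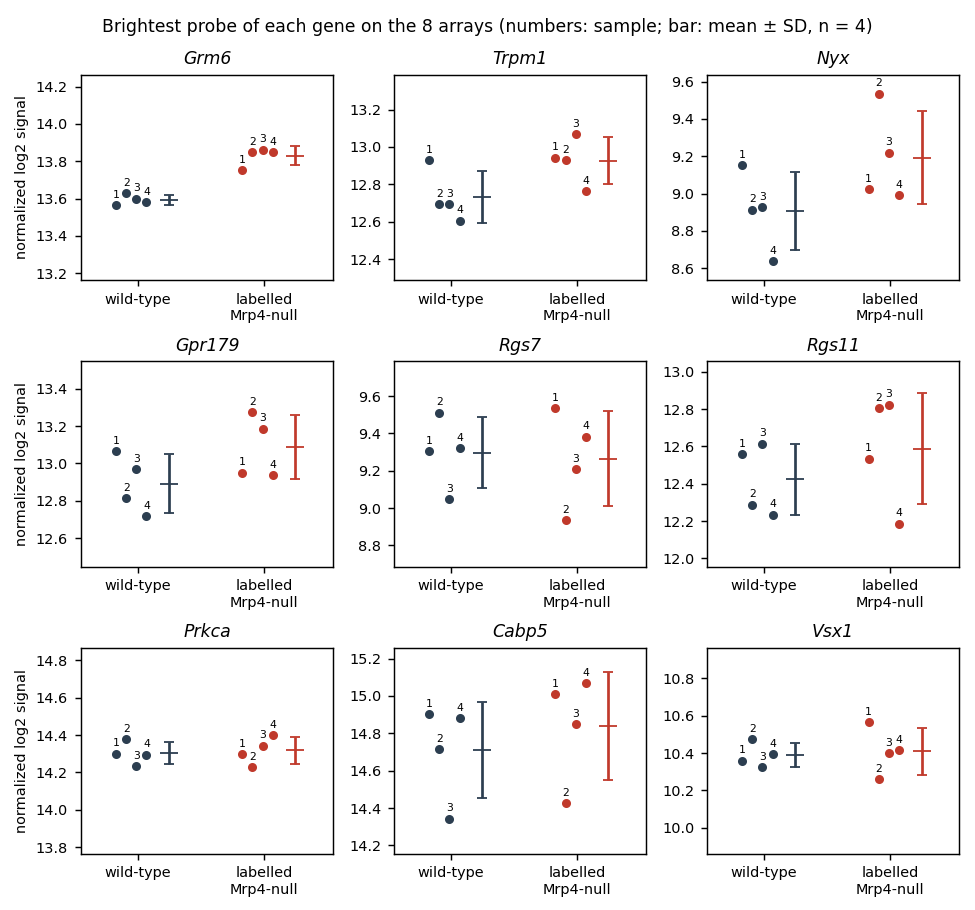
Normalized log2 signal of the brightest probe of each of the 9 genes (y axis, each panel spanning 1.1 log2 units) on the wild-type arrays (dark) and the arrays labelled Mrp4-null (red); numbers beside points give the sample, and bars give the mean ± SD (n = 4). The arrays part without overlap for Grm6 and overlap for the other 8 genes.

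Grm6 encodes mGluR6, the receptor at the head of the cascade. Its brightest probe, A_55_P1990623, was at 13.75, 13.85, 13.86 and 13.85 on arrays 1 to 4 labelled Mrp4-null and at 13.57, 13.63, 13.60 and 13.58 on wild-type arrays 1 to 4. Every array with the knockout label lay above every wild-type array, and the arrays within a genotype lay close together, with a within-genotype SD (0.041) lower than that of all but 0.782% of retained probes. The difference was 1.18-fold (95% interval 1.06 to 1.31), or 0.24 on the log2 scale (SE 0.07), and did not meet the threshold for a call (limma adjusted p = 0.362). Arrays that do not overlap with the knockout label higher were found for 3 of the 18 member probes and for 2.44% of all retained probes. In the other direction it was 0 member probes, and 4.79% of all retained probes did not overlap in either direction. The second Grm6 probe, A_51_P224938, was at 9.74, 9.05, 9.52 and 9.66 against 9.41, 9.60, 9.04 and 9.33 in wild-type. These values overlapped, at a log2 fold change of 0.15 (95% interval -0.25 to 0.54). This value for A_51_P224938 was 0.047 without wild-type array 3 and 0.30 without array 2 labelled Mrp4-null.

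Trpm1, the cation channel that the cascade gates, was the member with the most probes, 6 in all, annotated to 2 RefSeq transcripts. The brightest, A_55_P2037997, was at 12.94, 12.93, 13.07 and 12.76 on arrays 1 to 4 labelled Mrp4-null and at 12.93, 12.69, 12.70 and 12.61 on the wild-type arrays. The highest wild-type array overlapped with those of the other genotype, and the log2 fold change was 0.20 (SE 0.10, limma adjusted p = 0.895). A_51_P338031 was at 8.30, 8.63, 8.37 and 8.25 against 8.03, 8.04, 8.10 and 7.91 in wild-type, without overlap. Its log2 fold change was 0.37 (SE 0.10, limma adjusted p = 0.302). The probe A_55_P2043782, was at 10.84, 10.50, 10.77 and 10.79 against 10.53, 10.43, 10.23 and 10.20, and these sets overlapped on 1 array of each genotype. Here the log2 fold change was 0.38 (SE 0.11, limma adjusted p = 0.389).

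The other 3 Trpm1 probes varied far more between arrays than between genotypes. A_55_P2739969, the dimmest, was at 5.52, 6.86, 6.12 and 5.79 on arrays 1 to 4 labelled Mrp4-null and at 6.06, 5.30, 6.65 and 5.56 in wild-type. Array 2 of the knockout label and wild-type array 3, the arrays of lowest overall signal, were the highest of their genotypes for this probe. The same 2 arrays were the highest for A_55_P2740906 and A_66_P111464, and also for A_51_P338031. The within-genotype SD was 0.59, 0.49 and 0.41 for the 3 variable probes and 0.13 to 0.16 for the other 3. Their log2 fold changes were 0.18, 0.15 and 0.17, with 95% intervals that reached from -0.63 to 0.98, from -0.53 to 0.82 and from -0.40 to 0.74. Over 20 alternatives the sign of A_55_P2739969 (-0.27 to 0.43), A_55_P2740906 (-0.25 to 0.32) and A_66_P111464 (-0.16 to 0.32) turned. In 6 of the 18 member probes, among them both of Rgs7, the same 2 arrays were instead the lowest of their genotypes, and the part of overall signal in these values was not tested. Without these 2 arrays, a setting chosen after the data were seen, 17 of the 18 member probes had a log2 fold change above 0 and 0 were called.

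**Figure D2:**
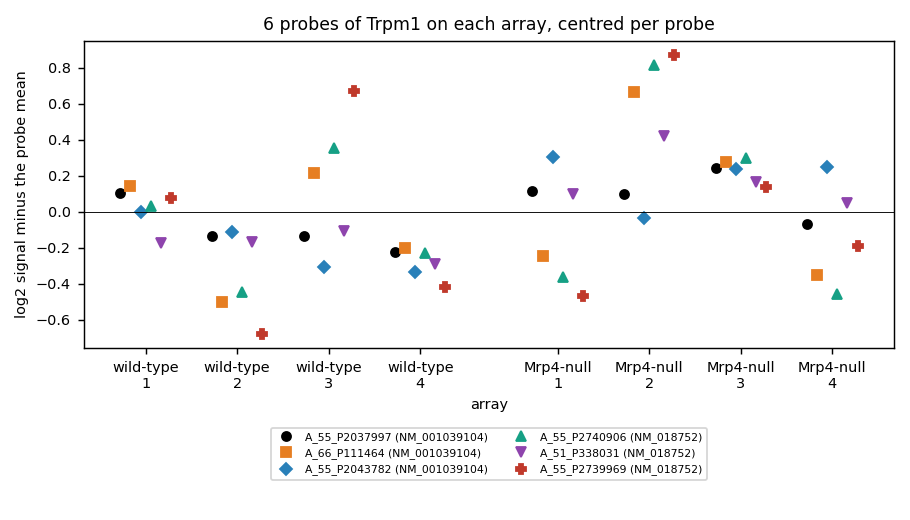
Log2 signal of the 6 Trpm1 probes on each array (x axis), with the mean of each probe over the 8 arrays subtracted (y axis); each symbol is 1 probe, with its RefSeq transcript in the legend. A_55_P2739969, A_55_P2740906 and A_66_P111464 lie highest within each genotype on wild-type array 3 and on array 2 labelled Mrp4-null, and so does A_51_P338031. The spread within a genotype is smaller for A_51_P338031, A_55_P2037997 and A_55_P2043782.

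Nyctalopin and GPR179 hold the cascade at the dendritic tip. Nyx, on chromosome X, encodes nyctalopin, a leucine-rich repeat protein needed to bring TRPM1 to the tip, and it had 1 probe. It was at 9.02, 9.54, 9.22 and 8.99 on arrays 1 to 4 labelled Mrp4-null and at 9.15, 8.91, 8.93 and 8.64 in wild-type, so the genotypes overlapped. The log2 fold change of Nyx was 0.28 (SE 0.15, limma adjusted p = 0.907), and with all 8 arrays it was the only brightest probe of the 9 whose 95% interval, -0.06 to 0.63, reached beyond 1.5-fold (0.585 on the log2 scale). The value was 0.17 without array 2 labelled Mrp4-null and 0.19 without wild-type array 4. Samples also differed in Xist, the X-inactivation RNA, which was at 1.88 on wild-type arrays 3 and 4 and at 8.75 to 10.60 on the other 6 arrays. The latter include every array labelled Mrp4-null, so Xist was not balanced between the genotypes. Xist was the only 1 of 5 listed sex-linked genes with a retained probe, and the labels give no sex. The part of sex in the values of Nyx, or of any other gene here, was not tested. Gpr179 encodes an orphan receptor that anchors the RGS proteins near mGluR6. It was at 12.95, 13.28, 13.19 and 12.94 against 13.07, 12.82, 12.97 and 12.72, again with overlap, at a log2 fold change of 0.20 (95% interval -0.07 to 0.46). This value for Gpr179 was 0.13 to 0.25 with 1 array left out and 0.12 with the lens level as a covariate.

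Rgs7 and Rgs11 encode the GTPase-activating proteins that end Go signalling when light arrives. The brighter Rgs7 probe was at 9.53, 8.94, 9.21 and 9.38 on arrays 1 to 4 labelled Mrp4-null and at 9.30, 9.51, 9.05 and 9.32 in wild-type. It was the single member probe with a log2 fold change below 0, -0.03 (95% interval -0.37 to 0.31), and its sign turned with the processing. The second Rgs7 probe had 0.03 (95% interval -0.49 to 0.55), and its sign turned too, from -0.098 without array 4 labelled Mrp4-null to 0.21 without array 2 of that label. Rgs11 was at 12.53, 12.81, 12.82 and 12.19 against 12.56, 12.29, 12.61 and 12.23, and array 4 of the knockout label was the lowest of all 8. The difference was 0.16 on the log2 scale (95% interval -0.20 to 0.53) and lay within the spread between arrays. With 1 array left out, the value for Rgs11 ran from 0.085 without array 3 labelled Mrp4-null to 0.30 without array 4 of that label.

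Prkca encodes protein kinase C alpha, the usual marker of rod bipolar cells, and its 2 probes differed. The brighter, A_66_P105791, was at 14.30, 14.23, 14.34 and 14.40 on arrays 1 to 4 labelled Mrp4-null and at 14.30, 14.38, 14.23 and 14.30 in wild-type. These values overlapped almost entirely, and the fold change of 1.01 had a 95% interval of 0.898 to 1.14. The dimmer probe, A_55_P1961436, was at 11.38, 11.25, 11.46 and 11.50 against 10.84, 10.94, 11.03 and 11.16, without overlap. It had the largest log2 fold change of the 18 member probes, 0.40 (SE 0.10, 1.32-fold), and did not meet the threshold for a call (limma adjusted p = 0.198). Within single arrays, the dimmer probe minus the brighter was -2.92 ± 0.04 (SD, n = 4) on the log2 scale under the knockout label and -3.31 ± 0.16 (SD, n = 4) in wild-type. The genotypes did not overlap in this difference (exact two-sided permutation test, p = 0.0286), which after Benjamini-Hochberg adjustment over the 9 probe pairs of member genes, compared with their brightest probes, was 0.257. For the other 8 pairs the exact p was 0.200 to 0.971.

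Cabp5 and Vsx1 mark bipolar subsets. Cabp5 encodes a calcium-binding protein of rod bipolar and some cone bipolar cells, and its brighter probe was at 15.01, 14.43, 14.85 and 15.07 on arrays 1 to 4 labelled Mrp4-null and at 14.90, 14.72, 14.34 and 14.88 in wild-type. The genotypes overlapped, with array 2 of the knockout label and wild-type array 3 the lowest, and the log2 fold change was 0.13 (95% interval -0.27 to 0.53). With 1 array left out, this value for Cabp5 ran from 0.0067 without wild-type array 3 to 0.26 without array 2 labelled Mrp4-null, and it was 0.34 with the lens level as a covariate. The second Cabp5 probe gave 0.11 (95% interval -0.14 to 0.36), which was 0.056 without wild-type array 4 and 0.19 without wild-type array 1. Vsx1, a homeodomain transcription factor of cone bipolar cells, was at 10.56, 10.26, 10.40 and 10.41 against 10.36, 10.47, 10.32 and 10.39, with a fold change of 1.01 (95% interval 0.885 to 1.16). For 8 of the 9 brightest probes, and for 11 of all 18 member probes, the 95% interval lay within 1.5-fold in either direction, as it did for 77.2% of all retained probes.

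**Figure D3:**
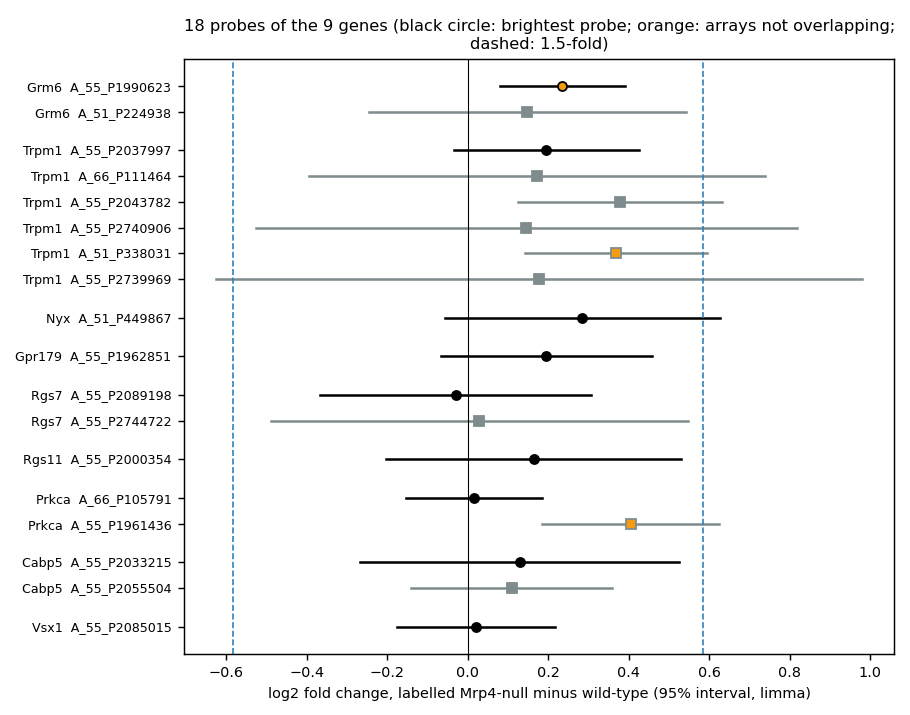
Log2 fold change of the 18 probes of the 9 genes (arrays labelled Mrp4-null minus wild-type arrays) with 95% intervals from limma; black circles are the brightest probe of a gene, grey squares the other probes, orange fill marks probes whose arrays do not overlap between genotypes, and dashed lines mark 1.5-fold. All but 1 point lie above 0, and 7 of the 18 intervals reach beyond a dashed line.

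Partners of the cascade and other bipolar cell genes were followed through 6 lists with 46 genes, of which 44 had a retained probe. Limma called 1 of these 44 genes changed, which was lower under the knockout label, and 0 higher, as did the LPE test, and 4 genes had an unadjusted p under 0.05 in limma, where 0.545% and 6.46% of all retained probes met these thresholds. By the brightest probe, 18 of the 44 had a log2 fold change above 0 and 26 below, with a median of -0.02, beside 46.8% of all retained probes above 0. These signs rest on single arrays for 26 of the 44 genes, whose log2 fold change crossed 0 when 1 array was left out. The gene that fell was Pcdh17, a cell adhesion protocadherin in the list of OFF cone bipolar cells. It was at 9.103, 8.998, 8.934 and 9.013 on arrays 1 to 4 labelled Mrp4-null and at 10.57, 10.46, 10.54 and 10.72 in wild-type, a log2 fold change of -1.56 (SE 0.08, limma adjusted p = 6.77e-05). Pcdh17 lies on chromosome 14, as do Abcc4 and, in the same lists, Lrit1 (-0.10) and Otx2 (-0.03), neither of which was called. Distances from Abcc4 were not compared, and the part of the targeted region in the value of Pcdh17 was not tested.

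Among 8 partners of the mGluR6 cascade, 0 were called and the median log2 fold change was 0.00. Gnb3 and Gnao1, the beta and alpha subunits of the G protein that mGluR6 activates, had the highest values, 0.26 (95% interval -0.17 to 0.69) and 0.20 (95% interval 0.03 to 0.38). Without array 3 labelled Mrp4-null, Gnb3 was at 0.078, below Gnao1. Gnao1 was at 13.56, 13.68, 13.59 and 13.67 under the knockout label and at 13.42, 13.44, 13.51 and 13.32 in wild-type, without overlap, at a limma adjusted p of 0.634, short of a call. Its other 2 probes had log2 fold changes of 0.07 and -0.00. Gng13, the gamma subunit, and Lrit3, a leucine-rich repeat protein that acts with nyctalopin, had the lowest, -0.09 and -0.08. Of 7 genes of the photoreceptor side of the synapse, which includes Egflam, the gene for pikachurin, 0 were called, with values from -0.14 for Cacna1f, the presynaptic calcium channel, and -0.10 for Lrit1 up to 0.01 for Cabp4 and 0.03 for Egflam. Cacna1f was at 0.060 without array 3 labelled Mrp4-null.

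The list of 11 bipolar cell transcription factors had a median of -0.03, and 0 were called. Lhx4, a LIM homeodomain factor, had a log2 fold change of 0.11, which was -0.082 without array 3 labelled Mrp4-null. Irx6 and Irx5, homeodomain factors of cone bipolar cells that both lie on chromosome 8, were lowest. Irx6 was at 10.53, 10.52, 10.56 and 10.51 on arrays 1 to 4 labelled Mrp4-null and at 10.82, 10.89, 11.01 and 10.88 in wild-type. The genotypes did not overlap, at a log2 fold change of -0.37 (SE 0.07, limma adjusted p = 0.0929), and the adjusted p was between 0.0309 and 1.00 over 20 alternatives, none of which called it. Irx5 was at 5.88, 5.14, 5.62 and 5.53 against 6.17, 6.10, 5.80 and 6.16, with overlap, at -0.51 (limma adjusted p = 0.439).

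The medians of the 3 bipolar class lists lay between -0.07 and 0.01. The 6 rod bipolar genes had a median log2 fold change of 0.01, with Sebox at -0.03, Car8 at 0.04 and Vstm2b at 0.08. For the 6 retained ON cone bipolar genes, of 7 listed, the median was -0.04, with Cpne9 at -0.07, Scgn at -0.06, Igfn1 at 0.09 and Kcng4 at 0.16. With 1 array left out, Igfn1 ran from -0.074 to 0.33 (without arrays 2 and 4 labelled Mrp4-null) and Kcng4 from -0.0072 to 0.32 (without array 3 labelled Mrp4-null and wild-type array 1). The 10 retained OFF cone bipolar genes, of 11 listed, had a median of -0.07, and apart from Pcdh17 0 were called.

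**Figure D4:**
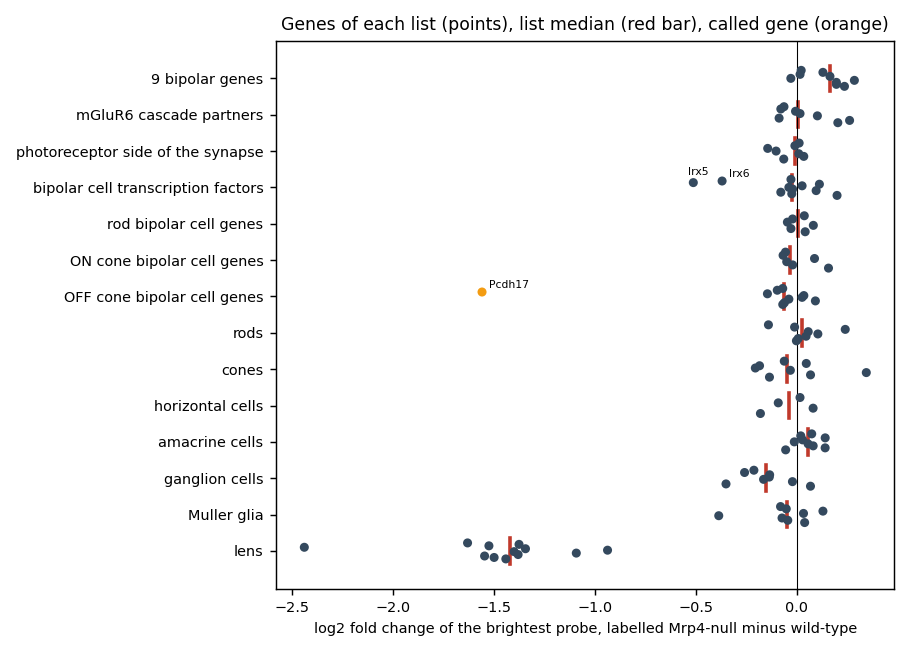
Log2 fold change of the brightest probe (x axis, arrays labelled Mrp4-null minus wild-type arrays) for each gene (point) of the 9 cascade and marker genes and of the lists of cascade partners, bipolar cell genes and markers of other cells; red bars are list medians and orange marks a gene called by limma. The 9 genes have a median of 0.16, Pcdh17 stands apart at -1.56, and the lens genes lie between -2.44 and -0.94.

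Markers of other retinal cells were read beside these values. Limma called 0 genes among 8 of rods (median log2 fold change 0.03), 8 of cones (-0.05), 4 of horizontal cells (-0.04), 9 of amacrine cells (0.06), 8 of ganglion cells (-0.15) and 8 of Muller glia (-0.05), all with a retained probe. It also called 0 among 6 retained genes of pigment epithelium (0.13), 5 of endothelium (-0.36), 5 of myeloid cells (0.17), 4 of blood (0.17) and 2 of skeletal muscle (0.00). In these 11 lists the LPE test called 0 genes, and without adjustment 1 gene was higher and 5 were lower in limma at p under 0.05, of 67 genes, where 6.46% of all retained probes met that threshold in either direction. Of 12 lens genes limma called 0, with 3 lower at an unadjusted p under 0.05, and the LPE test called 11, against 0.626% of all retained probes. All 12 had a log2 fold change below 0, with a median of -1.42, and their summed log2 signal was 11.70 to 14.64 under the knockout label and 13.18 to 15.76 in wild-type, ranges that overlapped. With the lens level as a covariate, chosen after the data were seen, 14 of the 18 member probes had a log2 fold change above 0 and 0 were called.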

How the data were processed

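Retinal RNA of 8 samples was labelled with Cy3 and hybridized to one-color Agilent SurePrint G3 Mouse arrays. The authors deposited scanner output, in which Agilent Feature Extraction 11.0.1.1 had corrected the signal intensity for background and for spatial trends, per the file headers. The series table they deposited holds the mean processed intensity per probe. Control and outlier spots (78 to 143 per array) were left out, and repeated spots entered as their mean log2 intensity. A probe was retained if all its measured arrays in either genotype, 3 or more, were well above background and the other genotype had at least 2 measured arrays. Retained probes were normalized by the quantile method, as in the study's methods. Accessions named 32989 probes (58.3%) through RefSeq of GRCm38.p6, and no array coordinates were used because the design is annotated to an older build. limma 3.58.1 in R 4.3.3 compared genotypes with no covariate (Benjamini-Hochberg over all retained probes); figures were drawn in Python 3.11.15. Alternatives were the LPE test, other normalizations, background correction, filters and thresholds, a block for the sample number, and leaving out arrays in turn. On simulated data with independent noise for each probe, the LPE test made more false calls than limma and also recovered more of the changed probes. Members, lists and tests were chosen with earlier results of these data known. Named genes are all members, Abcc4, called genes of the 6 bipolar lists or else the 2 highest and 2 lowest, and the 5 genes most like the members' mean profile. Some genes that this rule names are not reported here. The number of arrays limits the precision.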

Additional observations from a re-analysis of the deposited data

Results flagged for a closer look

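In 48 sets of 4 values, each from 1 genotype, a search for a single distant value found 2, where chance gives about 1 in 20. For Grm6 (A_55_P1990623), array 1 labelled Mrp4-null was at 13.75 against 13.85 to 13.86 on the other 3, a gap of 0.887 of the whole range. That range is narrow, and the array still lay above every wild-type array. Overall signal (75th percentile) was 670 on array 2 labelled Mrp4-null against 988 to 1045 on the other 3, a gap of 0.850 of the range. On this array 4 probes of Trpm1 were at their highest for the genotype.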

How the results depend on the processing

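Over 22 alternatives the number of member genes called stayed at 0, and 1 gene of the 6 bipolar and partner lists was called in each. Over 21 alternatives the median log2 fold change of the 9 genes was 0.12 to 0.23. Abcc4 was called in all 20 of its fits, at 3.29 to 4.03. The number of retained probes called, 202 in all, was 71 with the sample number as a replicate block, 124 without the 2 arrays of lowest signal, 124 with the lens level as covariate (both chosen after the data were seen) and 699 with the fold threshold alone. With 1 array left out it was 117 to 183, and it was 130, 126 and 117 without wild-type array 2, 3 and 4. Deviations from the genotype mean correlated between same-numbered arrays with r = -0.29, -0.69, 0.03 and 0.41. Between array 2 labelled Mrp4-null and wild-type array 3, r was 0.71. These values cannot decide whether same-numbered samples were linked, because deviations within a genotype offset one another. The sign of 4 uncalled genes turned. Rgs7 was 0.0058 with normexp, 0.14 with the lens covariate and -0.12 to 0.080 with 1 array left out. Rgs11 was -0.024 with the lens covariate. Prkca was -0.044 under the 75th percentile shift, -0.012 to 0.045 with 1 array left out and 0.21 as the mean over all its retained probes. Vsx1 was -0.00079 under that shift and -0.030 to 0.071 with 1 array left out. Probe names from a gene name column could not be tried, since the files used here pair probes with accessions only.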

Other observations

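One member probe was too dim to test. The second Vsx1 probe, A_52_P433667, had processed intensities of 5.11 to 15.99 and was well above background on 1 array of each genotype.

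The mean profile of the 9 genes over the 8 arrays, each gene centred on its own mean, was 0.08, 0.04, 0.12 and 0.02 on arrays 1 to 4 labelled Mrp4-null and 0.03, -0.05, -0.12 and -0.13 on wild-type arrays 1 to 4. Wild-type array 1 lay among the arrays of the other label. The 2 lowest values were those of wild-type arrays 3 and 4, the arrays with Xist at 1.88, and the part of sex in this profile was not tested. Among 37075 probes, the named genes outside all lists with the most similar profiles were Myo15, an unconventional myosin of hair cell stereocilia (Pearson r = 0.980 over 8 arrays), Crispld2 (0.972), Cd244a (0.972), Gm128 (0.969) and Tshz3 (0.965). Their log2 fold changes were 0.45, 0.26, 0.45, 0.29 and 0.29, and limma called 0 of these 5 changed, with adjusted p from 0.331 to 0.699. The direction of these values follows from the choice of genes by this profile. How high r would run by chance among so many probes was not tested.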
